A study of Mus musculus with 13 samples.

Results

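Cell adhesion molecules of the cadherin, integrin and immunoglobulin families were followed in cultured mouse oligodendrocyte-lineage cells with and without a conditional knockout of Eed. The members were chosen by gene symbol alone: cadherins (Cdh), protocadherins (Pcdh), contactins 2 to 6 and contactin-associated proteins, sidekicks, Dscam proteins, the L1 family and Ncam, Cadm proteins and nectins, Igsf proteins, the leucine-rich repeat proteins Lrrtm, Lrrn, Slitrk and Flrt, and symbols starting Itga or Itgb. The deposited count table held 153 such genes among 13549. Of these, Itgb1bp1, Itgb1bp2 and Itgb3bp are integrin-binding proteins and not integrin chains. The mouse RefSeq gene table lists 181 protein-coding genes under the same rule, of which 29 have no row in the count table and were not analysed here. The cells came from C57BL/6 brain. Immature oligodendrocytes (iOLs) were sequenced as 2 Eed cKO and 2 control libraries, after 2 days in medium with the thyroid hormone T3 and without PDGF. Oligodendrocyte precursor cells (OPCs), kept in DMEM-Sato medium with PDGF and NT-3, were sequenced as 3 Eed cKO and 2 control libraries. By the labels, 2 of the cKO OPC libraries and 1 control OPC library came from postnatal day 7 and every other library from postnatal day 6. The labels name neither the Cre driver nor the alleles of the controls, and the genotype entry reads the same for all libraries, so the groups rest on the sample titles. Nothing states whether replicates were separate animals or cultures, and p-values therefore measure the spread between these libraries.

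Eed is a core subunit of Polycomb repressive complex 2, which places the repressive methyl mark on lysine 27 of histone H3. Cadherins bind their like on the neighbouring cell through calcium-dependent repeats and reach the cytoskeleton through catenins. Integrins are pairs of an alpha and a beta chain that bind matrix proteins such as laminin, fibronectin, collagen and tenascin. Oligodendrocytes use integrins to read the axon surface and matrix. Neurofascin, contactins, contactin-associated proteins and Cadm proteins take part in contacts between axon and myelinating glia, some on the axon and some on the glial cell.

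Total counts per library ran between 17417529 and 19680398, and the adhesion genes took 1.0% to 1.3% of them. Expression is given as CPM, the read count scaled to a common library size with trimmed-mean (TMM) factors, and a gene was called at an edgeR adjusted p under 0.05 over all 13549 genes. The knocked-out gene, Eed, had 14.6 and 12.1 CPM in cKO iOLs, against 18 and 21.2 CPM in control iOLs (log2 fold change -0.55 ± 0.18, edgeR adjusted p = 0.0973). In OPCs Eed had 13.3, 11.8 and 12.5 CPM in cKO libraries, against 21.7 and 16.8 CPM in control libraries (-0.62 ± 0.17, edgeR adjusted p = 0.0847). Every cKO library was below every control library of its stage, and neither comparison passed the test. With 2 or 3 libraries a group, such separation can easily arise by chance. Here and below it is description only, and its share over all genes was not counted. Values after ± are standard errors of the log2 fold change. The sum of 5 OPC markers was 3120 to 3410 CPM in cKO iOLs, 3420 and 3740 CPM in control iOLs. In OPCs it was 11500 to 12300 CPM in cKO libraries, against 8200 and 12800 CPM in control libraries. Other markers moved with the groups and are given where they touch a result. The sum of 7 oligodendrocyte markers was 1060 and 1480 CPM in cKO iOLs, 4770 and 4930 CPM in control iOLs. Its OPC values were 1980, 2740 and 1010 CPM in cKO libraries, against 6440 and 2180 CPM in control libraries. The sum of 6 astrocyte markers was 8980 and 10900 CPM in cKO iOLs and 5970 and 6240 CPM in control iOLs. In OPCs it was 2660, 2860 and 6910 CPM in cKO libraries, against 2830 and 8510 CPM in control libraries. Of 6 microglial markers P2ry12 alone was in the table, at 1.12 to 2.48 CPM. Summed neuronal markers, all 8 of them measured, were 300 and 335 CPM in cKO iOLs, against 190 and 202 CPM in control iOLs. In OPCs they were 311, 313 and 217 CPM in cKO libraries, against 245 and 169 CPM in control libraries. Of these markers Gad2 rose in cKO iOLs (1.0 ± 0.19, edgeR adjusted p = 0.0120) and cKO OPCs (2.55 ± 0.19, edgeR adjusted p = 0.000154), and Tubb3 rose in cKO iOLs (0.65 ± 0.17, edgeR adjusted p = 0.0442). Endothelial markers, of which 3 of 6 were measured, summed to 151 to 188 CPM in iOLs and 15.4 to 20.2 CPM in OPCs. In bulk RNA, fewer cells of a type and less RNA per cell cannot be told apart. The control OPC pair differed from each other more than any other replicate pair, with a chi-square per degree of freedom of 105 over the adhesion genes, against 6.27 to 58.4 for the other pairs.

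With the loss of Eed in iOLs, the integrin chains Itga1 and Itga8 and the immunoglobulin protein Sdk1 rose between 3.53-fold and 4.31-fold, and Nectin1 and Cdh22 rose by 2.10-fold and 2.07-fold, while Igsf9b, Pcdh7, Cadm1 and 4 leucine-rich repeat proteins fell. In all, 19 adhesion genes rose and 7 fell, and 127 did not pass. Of all genes, 7.08% rose and 3.51% fell, while the shares of the adhesion genes were 12.4% and 4.58%. The median log2 fold change was 0.00 for the adhesion genes and 0.00 for all genes. By family, 4 of 12 integrin alpha chains rose, as did 5 of 17 cadherins, 2 of 11 protocadherins outside the cluster, 2 of 8 contactins and contactin-associated proteins, 2 of 8 Igsf proteins and 2 of 17 leucine-rich repeat proteins, and 1 each of the nectins and the sidekicks. Of the 7 that fell, 4 were leucine-rich repeat proteins. None of the 5 L1 and Ncam proteins or the 6 integrin beta chains was called by edgeR. At an unadjusted p under 0.05, 1 L1 or Ncam protein was lower, and 1 integrin beta chain was higher and 2 lower, while DESeq2 called 1 L1 or Ncam protein lower and 1 beta chain higher. The median of the integrin alpha chains was 0.59 and that of the leucine-rich repeat proteins was -0.38. The number called higher was 10, 7, 7 and 9 without cKO iOL 1, cKO iOL 2, control iOL 1 and control iOL 2, each fit taking the spread of a lone library from the other groups.

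Sdk1, an adhesion protein that binds its like and is known from synaptic layers of the retina, had 31.3 and 38.3 CPM in cKO iOLs, against 8.18 and 7.94 CPM in control iOLs. The groups did not overlap, and the log2 fold change was 2.11 ± 0.17 (edgeR adjusted p = 0.000347). Itga1 encodes an alpha chain that pairs with the beta 1 chain as a collagen and laminin receptor. It had 104 and 132 CPM in cKO iOLs, against 30.1 and 27.7 CPM in control iOLs, a log2 fold change of 2.03 ± 0.21 (edgeR adjusted p = 0.000929). Itga8, whose product with the beta 1 chain binds nephronectin and fibronectin, was low in iOLs, at 3.62 and 4.55 CPM in cKO and 1.19 and 1.11 CPM in control libraries (1.82 ± 0.27, edgeR adjusted p = 0.00353). Both libraries of each group lay close together for Itga8 and Itga1, far from those of the other group. Nectin1, an immunoglobulin protein of cell junctions that binds nectin 3, had 75.4 and 82.0 CPM in cKO iOLs, against 40.9 and 34.0 CPM in control iOLs (1.07 ± 0.16, edgeR adjusted p = 0.00377). Cdh22, a classical cadherin, had 45.8 and 44.6 CPM in cKO iOLs, against 24.1 and 19.5 CPM in control iOLs (1.05 ± 0.15, edgeR adjusted p = 0.00268). Sdk1, Itga1, Itga8, Nectin1 and Cdh22 kept their calls whichever single library was left out, and the highest edgeR adjusted p over all alternatives was 0.0455, for Nectin1. The other 21 members called in iOLs each lost the call without at least 1 library.

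Sequence just upstream of the genes is shown for those of the 5 members with an entry in the RefSeq promoter table (build GRCm38.p6, which is mm10), because their CpG content differed widely. CpG-rich promoters are the kind at which Polycomb complexes are known to bind in mammals. The stretches are 5′ to 3′ on the gene's strand, hold only bases outside the annotated gene, and have CpG pairs in capitals. Sdk1 lies on chr5:141241284-141241496 (plus strand, 213 bases, 37 CpG pairs), Itga1 on chr13:115101965-115102214 (minus strand, 250 bases, 10 pairs), Itga8 on chr2:12301986-12302194 (minus strand, 209 bases, 14 pairs) and Cdh22 on chr2:165234925-165234987 (minus strand, 63 bases, 9 pairs).
Sdk1: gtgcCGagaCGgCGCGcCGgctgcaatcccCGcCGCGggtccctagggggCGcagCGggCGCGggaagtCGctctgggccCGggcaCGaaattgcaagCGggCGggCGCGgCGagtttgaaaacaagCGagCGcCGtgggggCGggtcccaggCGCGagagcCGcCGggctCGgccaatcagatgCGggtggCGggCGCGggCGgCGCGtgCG
Itga1: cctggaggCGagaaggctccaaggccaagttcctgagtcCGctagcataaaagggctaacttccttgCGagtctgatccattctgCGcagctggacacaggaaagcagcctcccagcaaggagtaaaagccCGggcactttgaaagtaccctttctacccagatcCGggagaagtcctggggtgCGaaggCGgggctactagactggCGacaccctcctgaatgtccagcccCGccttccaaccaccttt
Itga8: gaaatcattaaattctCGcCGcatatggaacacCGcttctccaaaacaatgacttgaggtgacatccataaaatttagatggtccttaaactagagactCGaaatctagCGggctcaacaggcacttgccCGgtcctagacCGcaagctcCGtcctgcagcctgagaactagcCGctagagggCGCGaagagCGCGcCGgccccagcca
Cdh22: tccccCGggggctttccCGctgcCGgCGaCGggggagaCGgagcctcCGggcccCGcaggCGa
Per base, Sdk1 held the most CpG pairs of the 4 and Itga1 the fewest. Over the 250 bases before the start used in that table, the median number of CpG pairs was 18 in 15 members called higher in cKO iOLs and 5 in 5 called lower. It was 11.5 in 74 adhesion genes with an entry and 16 in 10589 genes. These counts describe sequence, the sets were not tested against each other, and binding at these promoters was not analysed here. Each call in the lower set was lost without at least 3 of the libraries.

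A further 14 members rose in cKO iOLs. The integrin chain Itga9, which binds tenascin-C and osteopontin, had 32.1 and 38.9 CPM in cKO iOLs, against 17.3 and 16.1 CPM in control iOLs (1.09 ± 0.19, edgeR adjusted p = 0.00805). Itga2b, the platelet fibrinogen-receptor chain, had 8.35 and 6.66 CPM in cKO iOLs, against 3.29 and 3.94 CPM in control iOLs (1.05 ± 0.26). Of the axon-glia proteins, Cntn2, which lies beside the paranodes of myelinated axons, had 36.9 and 44.8 CPM in cKO iOLs, against 17.0 and 22.7 CPM in control iOLs (1.04 ± 0.18, edgeR adjusted p = 0.00719). Cntnap1, the paranodal partner of contactin 1, had 12.3 and 12.4 CPM in cKO iOLs, against 7.38 and 7.27 CPM in control iOLs (0.76 ± 0.20, edgeR adjusted p = 0.0421). No library of one group reached the range of the other for these 4 genes, which were picked because they were called.

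Among the cadherins, Cdh19, known from Schwann cell precursors, had 7.08 and 8.78 CPM in cKO iOLs, against 1.82 and 3.50 CPM in control iOLs (1.57 ± 0.35). Of the Schwann cell markers reported here, Sox10, a gene that oligodendrocytes express too, had 639 and 742 CPM in cKO iOLs and 1010 and 924 CPM in control iOLs (-0.49 ± 0.17, edgeR adjusted p = 0.108). Erbb3 rose with Cdh19, at 58.5 and 91.9 CPM in cKO iOLs against 14.1 and 14.0 CPM in control iOLs (2.42 ± 0.21, edgeR adjusted p = 0.000529). Pmp22 (0.56 ± 0.23), Ngfr (1.25 ± 0.43) and Egr2 (-0.37 ± 0.38) did not pass, and the part of these markers in the rise of Cdh19 was not tested. The classical cadherins Cdh8 (0.93 ± 0.22), Cdh24 (0.78 ± 0.18) and Cdh4 (0.71 ± 0.19) rose by less, and Cdh4 was nearest to the threshold, at an edgeR adjusted p of 0.0487, which was 0.0103 to 0.314 over the alternatives. The protocadherins Pcdh18 (1.30 ± 0.34) and Pcdh8 (0.81 ± 0.21) rose, and so did Slitrk1, a synaptic ligand of receptor tyrosine phosphatases, at 28.3 and 34.5 CPM in cKO iOLs and 15.6 and 12.6 CPM in control iOLs (1.15 ± 0.20). Lrrn2 (0.79 ± 0.12), Igsf9 (1.04 ± 0.17) and Igsf3 (1.26 ± 0.32) complete the group. The astrocyte and neuronal marker sums were also higher in cKO iOLs, as given above. Gfap made up most of the astrocyte sum, at 6120 and 7940 CPM in cKO iOLs against 3780 and 3660 CPM in control iOLs. Gfap did not pass (0.92 ± 0.51, edgeR adjusted p = 0.338), and neither did the other astrocyte markers, whose values were also positive. The part of astrocyte and neuronal RNA in these changes was not tested.

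The 7 members that fell in cKO iOLs included 3 of the Lrrtm genes. Igsf9b, an adhesion protein of inhibitory synapses, had 417 and 516 CPM in cKO iOLs, against 903 and 876 CPM in control iOLs (-0.93 ± 0.17, edgeR adjusted p = 0.00969). Lrrtm1, a postsynaptic organiser that binds neurexins, had 18 and 19.7 CPM in cKO iOLs, against 32.8 and 27.3 CPM in control iOLs (-0.67 ± 0.15). Its relatives Lrrtm4 (-0.69 ± 0.14) and Lrrtm3 (-0.49 ± 0.13) fell too, and so did Slitrk3 (-0.70 ± 0.14), an organiser of inhibitory synapses. Pcdh7 had 71.1 and 86.7 CPM in cKO iOLs, against 145 CPM in each control iOL library (-0.88 ± 0.20, edgeR adjusted p = 0.0228). Cadm1, an immunoglobulin protein that joins synaptic and axon-glia contacts, had 87.4 and 86.8 CPM in cKO iOLs, against 132 and 130 CPM in control iOLs (-0.59 ± 0.13, edgeR adjusted p = 0.0193). Each of these 7 lost its call without at least 3 of the libraries, and without cKO iOL 1 or control iOL 1 the number called lower was 0, against 14 without cKO OPC 3. The number was 1 without cKO iOL 2 and 1 without control iOL 2. With all libraries 47 adhesion genes had an unadjusted p under 0.05 in iOLs, and DESeq2 called 11 lower. The sum of the oligodendrocyte markers moved with these genes, at 1060 and 1480 CPM in cKO iOLs against 4770 and 4930 CPM in control iOLs, and its part in them was not tested.

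**Figure D1:**
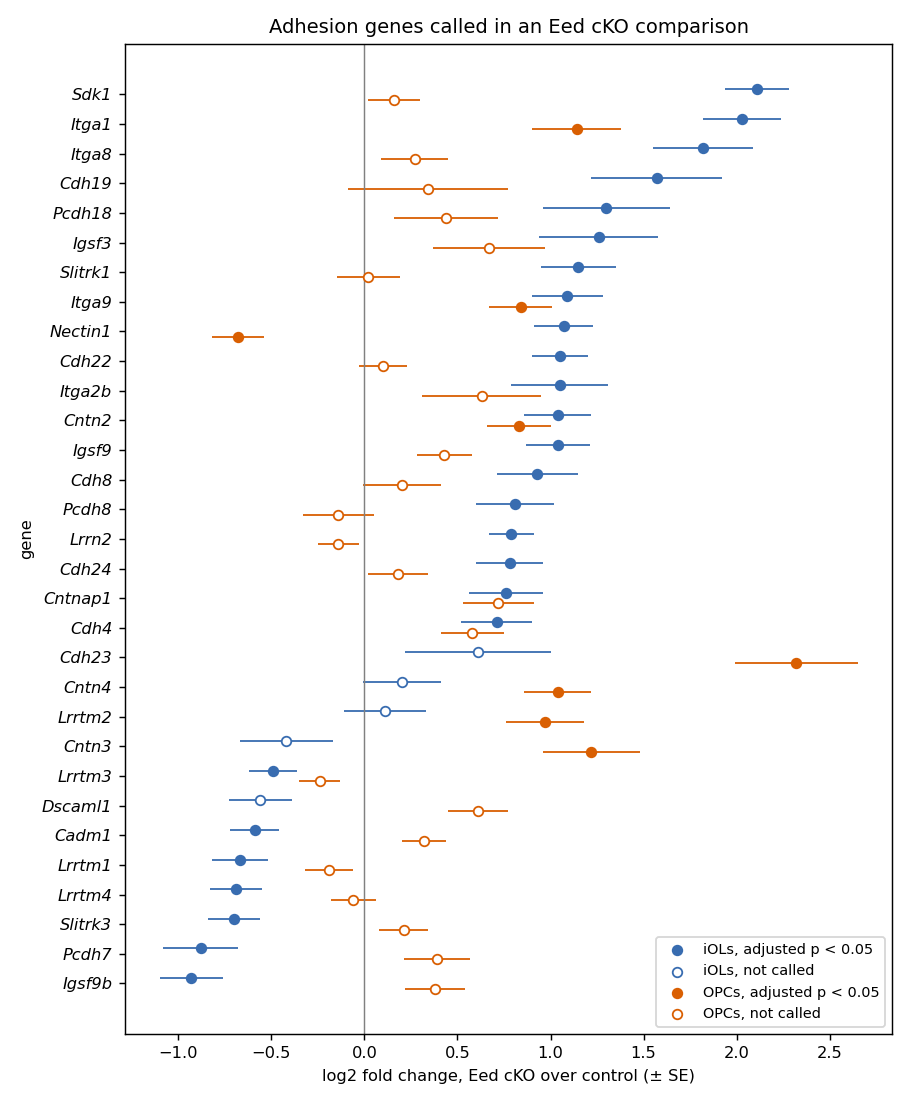
Log2 fold change of Eed cKO over control (x axis, ± standard error) for the adhesion genes called in a cKO comparison or in its difference between stages (y axis), with iOLs in blue and OPCs in orange, filled where the adjusted p is under 0.05. Sdk1, Itga1 and Itga8 lie between 1.82 and 2.11 in iOLs, and Cdh23 lies at 2.32 in OPCs.

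In OPCs 7 adhesion genes rose and 1 fell with the loss of Eed, and 145 did not pass. Of all genes, 2.94% rose and 0.303% fell, while the shares of the adhesion genes were 4.58% and 0.654%. The median log2 fold change was 0.17 for the adhesion genes and -0.02 for all genes. Cdh23, an adhesion protein best known from the tip links of inner-ear hair cells, had 5.53, 4.58 and 4.44 CPM in cKO OPCs, against 0.879 and 1.05 CPM in control OPCs. Every cKO library was above both controls, and the log2 fold change was 2.32 ± 0.33 (edgeR adjusted p = 0.00571). Within postnatal day 7 the difference of mean log2 CPM was 2.38, and within day 6 it was 1.97. Cdh23 kept its call without each library, with an edgeR adjusted p of at most 0.0491 over all alternatives. Its level in iOLs was 1.01 and 1.48 CPM in cKO and 0.568 and 1.05 CPM in control libraries (0.61 ± 0.39, edgeR adjusted p = 0.411).

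Contactins made up 3 of the 7 genes that rose in cKO OPCs. Cntn4, an axonal contactin, had 66.2, 72.6 and 48.2 CPM in cKO OPCs, against 31.2 and 29.3 CPM in control OPCs (1.04 ± 0.18, edgeR adjusted p = 0.0164). The within-day differences of Cntn4 were 1.15 on day 7 and 0.72 on day 6. Cntn3 had 4.01, 4.74 and 3.35 CPM in cKO OPCs, against 1.87 and 1.58 CPM in control OPCs (1.22 ± 0.26, edgeR adjusted p = 0.0349), with differences of 1.17 on day 7 and 1.04 on day 6. Cntn2 had 24.7, 25.6 and 22.4 CPM in cKO OPCs, against 14.5 and 12.8 CPM in control OPCs (0.83 ± 0.17, edgeR adjusted p = 0.0320), with differences of 0.79 and 0.80. All cKO libraries were above both controls for these contactins.

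Itga1 had 5.59, 8.13 and 5.52 CPM in cKO OPCs, against 2.46 and 3.32 CPM in control OPCs (1.14 ± 0.24, edgeR adjusted p = 0.0328). Itga9 had 176, 216 and 145 CPM in cKO OPCs, against 93.7 and 106 CPM in control OPCs (0.84 ± 0.17, edgeR adjusted p = 0.0308). Within days the differences were 1.42 and 0.72 for Itga1 and 1.05 and 0.45 for Itga9, the larger on day 7. Lrrtm2, which binds neurexins, had 96.8, 94.2 and 58.6 CPM in cKO OPCs, against 40.8 and 44.0 CPM in control OPCs (0.97 ± 0.21, edgeR adjusted p = 0.0363), with differences of 1.23 and 0.41. Nectin1 fell, at 64.2, 57.1 and 53.3 CPM in cKO OPCs against 104 and 82.6 CPM in control OPCs (-0.68 ± 0.14, edgeR adjusted p = 0.0333), with differences of -0.78 and -0.63. Apart from Cdh23, each of these genes lost its call when cKO OPC 1, cKO OPC 2 or control OPC 1 alone was left out. The number called higher was 1, 1 and 18 without cKO OPC 1, 2 and 3, it was 1 and 48 without control OPC 1 and 2, 2 without either cKO iOL and 3 without either control iOL. The number called lower was 0 without cKO OPC 1 or 2 and without each iOL library, and 4 without cKO OPC 3 or control OPC 2. With all libraries 34 adhesion genes had an unadjusted p under 0.05 in OPCs, and DESeq2 called 12 higher and 2 lower. Cntn2, Itga1 and Itga9 were called higher in cKO cells of both stages. Of 8 neuronal markers Gad2 alone was called in OPCs, where it rose in cKO libraries as given above. Tubb3 was lower (-0.27 ± 0.16), and the rest had positive values that did not pass. Neuronal marker sums overlapped, at 311, 313 and 217 CPM in cKO against 245 and 169 CPM in control OPCs. The part of neuronal RNA in these changes was not tested.

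The effect of Eed loss differed between iOLs and OPCs for 9 members, tested as the difference of the log2 fold changes (iOLs minus OPCs). It was called positive for 5 and negative for 4, against 0.945% and 0.886% of all genes, and the median difference was -0.15 for the adhesion genes and 0.07 for all genes. Nectin1 changed in opposite directions, by 1.07 ± 0.16 in iOLs and by -0.68 ± 0.14 in OPCs, a difference of 1.75 ± 0.21 (edgeR adjusted p = 0.0109). Sdk1 changed by 2.11 ± 0.17 in iOLs and by 0.16 ± 0.14 in OPCs, where cKO libraries had 75.2, 68.1 and 67.0 CPM and control libraries 56.0 and 69.9 CPM. The difference for Sdk1 was 1.95 ± 0.21 (edgeR adjusted p = 0.0109). Itga8 had 25.8, 24.9 and 22.4 CPM in cKO OPCs, against 16.6 and 23.9 CPM in control OPCs, and the difference of its effects was 1.55 ± 0.32 (edgeR adjusted p = 0.0494). Cdh22 (0.95 ± 0.19) and Lrrn2 (0.93 ± 0.16) were the other positive ones.

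Of the negative ones, Igsf9b had 454, 416 and 347 CPM in cKO OPCs, against 302 and 321 CPM in control OPCs, so that its cKO values were the lower ones in iOLs and the higher ones in OPCs (difference -1.31 ± 0.23, edgeR adjusted p = 0.0320). Dscaml1, a relative of Dscam, had 73.0 and 76.0 CPM in cKO iOLs, against 109 and 111 CPM in control iOLs. In OPCs Dscaml1 had 316, 265 and 209 CPM in cKO libraries, against 173 and 172 CPM in control libraries. Neither stage passed alone for Dscaml1, although both did with a postnatal day term (edgeR adjusted p = 0.0160 in iOLs and 0.0297 in OPCs), and the difference was -1.17 ± 0.23 (edgeR adjusted p = 0.0433). Its iOL value was -0.56 with and without that term, since all iOL libraries are from postnatal day 6. Slitrk3 (-0.91 ± 0.19) and Cadm1 (-0.90 ± 0.17) followed, and both groups of libraries stood apart in iOLs. All 9 lost this call when some library was left out, Sdk1 only without control iOL 1 or 2, where its edgeR adjusted p reached 0.0710. The number called positive was 2 without cKO OPC 1 or 2, 1 without either cKO iOL and 8 without control OPC 2. The number called negative was 17 without cKO OPC 3, 2 without control OPC 1, 32 without control OPC 2 and 0 without cKO OPC 1 or 2 or either cKO iOL. Without control iOL 1 or control iOL 2 none of the adhesion genes was called in either direction by edgeR, whereas 39 had an unadjusted p under 0.05 with all libraries, and DESeq2 called 7 positive and 10 negative.

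**Figure D2:**
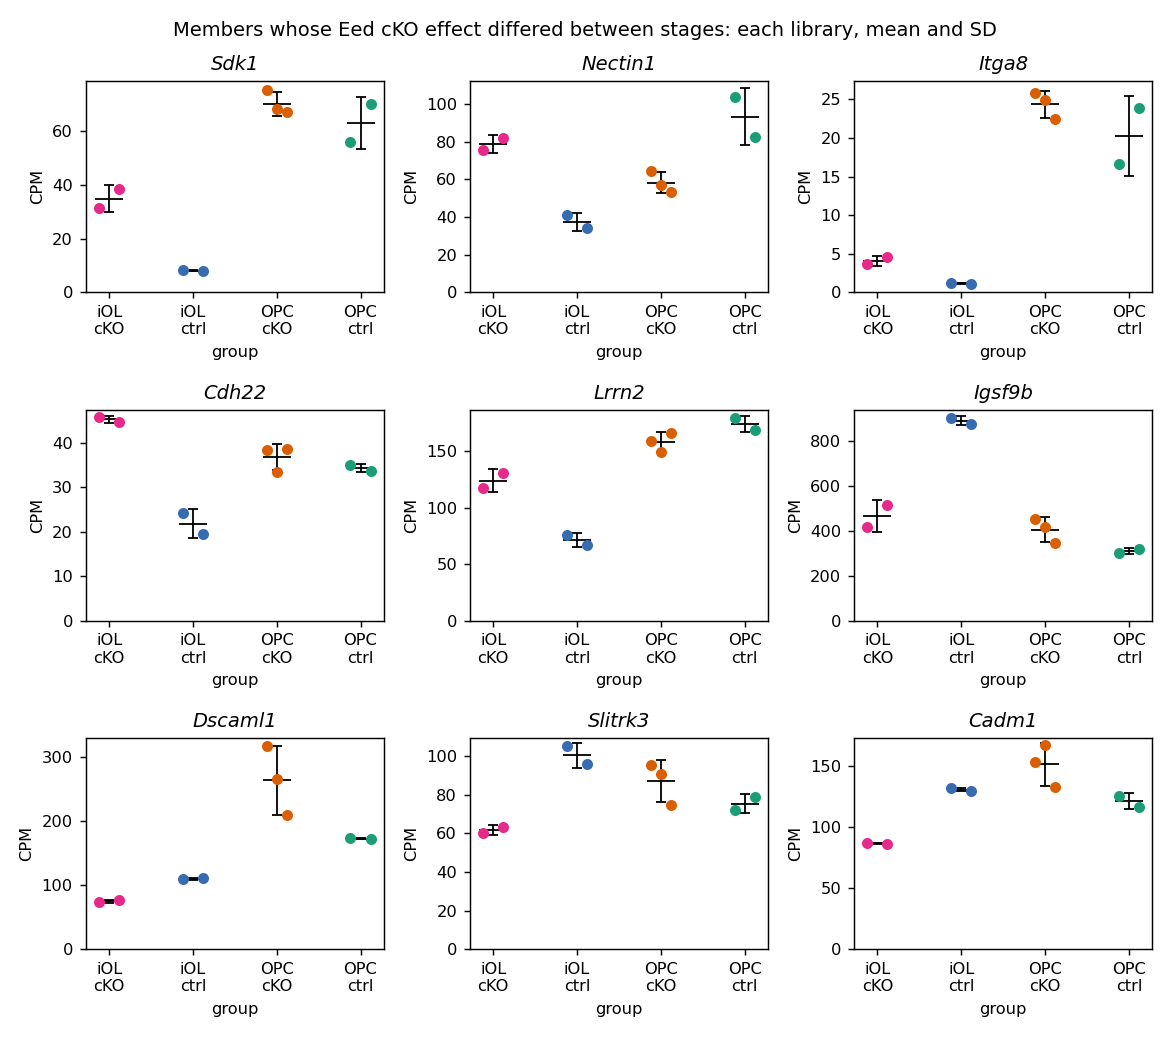
CPM (y axis, from 0) of the 9 adhesion genes whose cKO effect differed between stages, by group (x axis), with a point per library and the mean ± SD in black (n = 2 or 3). Nectin1 is higher in cKO iOLs and lower in cKO OPCs, and Sdk1 has 31.3 and 38.3 CPM in cKO iOLs and 8.18 and 7.94 CPM in control iOLs.

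The 2 days of differentiation changed many adhesion genes in cultures of both genotypes. In cKO cultures 32 rose and 53 fell in iOLs relative to OPCs, and in control cultures 30 rose and 47 fell. Of all genes, 18.5% rose and 21.8% fell in cKO cultures, while 21.0% rose and 25.3% fell in control cultures. The shares of the adhesion genes were 20.9% and 34.6% in cKO and 19.6% and 30.7% in control cultures. Outside the protocadherin cluster, 21 of 99 rose and 49 fell in cKO cultures, and 20 rose and 44 fell in control cultures, with medians of -0.54 and -0.37. The families moved unequally. Protocadherins outside the cluster had 9 of 11 members lower in cKO and 7 of 11 in control cultures, and leucine-rich repeat proteins 14 and 10 of 17. Integrin alpha chains had 7 of 12 higher and 3 lower in cKO, and 4 higher and 2 lower in control cultures. The number called higher was 20 and 13 in cKO cultures without cKO iOL 1 and cKO iOL 2, and 55 in control cultures without control OPC 2. All iOL libraries are from postnatal day 6, while the OPC groups mix both days.

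**Figure D3:**
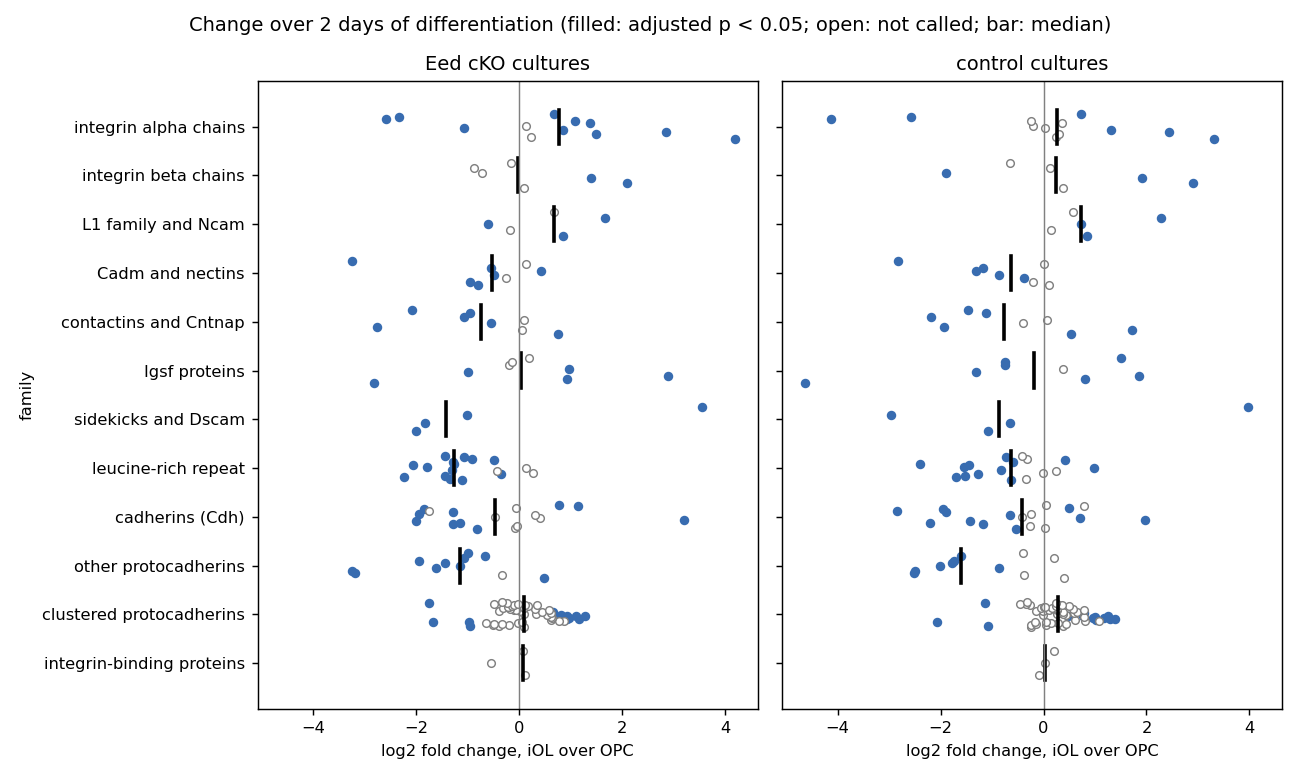
Log2 fold change of iOLs over OPCs (x axis) for the 153 adhesion genes by family (y axis), in cKO cultures on the left and control cultures on the right, a point per gene, filled where called, with a bar at the family's median. Protocadherins outside the cluster have medians of -1.14 in cKO and -1.61 in control cultures, and integrin alpha chains 0.76 and 0.27.

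Itga1 had the largest rise of the integrins in both genotypes. In cKO cultures Itga1 had 104 and 132 CPM in iOLs, against 5.59, 8.13 and 5.52 CPM in OPCs (4.20 ± 0.20, edgeR adjusted p = 2.75e-06). In control cultures it had 30.1 and 27.7 CPM in iOLs, against 2.46 and 3.32 CPM in OPCs (3.31 ± 0.25, edgeR adjusted p = 1.35e-05). Itgb3, the beta chain of the vitronectin receptor, had 27.0 and 40.6 CPM in cKO iOLs, against 7.22, 8.45 and 7.90 CPM in cKO OPCs (2.10 ± 0.19). Its control values were 36.7 and 30.9 CPM in iOLs, against 4.80 and 4.21 CPM in OPCs (2.91 ± 0.23). Itgav, its alpha partner, rose by 0.67 ± 0.18 in cKO and by 0.73 ± 0.20 in control cultures. Itga2b rose by 2.86 ± 0.25 in cKO and 2.43 ± 0.31 in control cultures. Itgb4, the partner of the alpha 6 chain, had 11.7 and 14.5 CPM in cKO iOLs, against 4.45, 4.58 and 5.99 CPM in cKO OPCs (1.39 ± 0.39). In control cultures Itgb4 had 5.28 and 15.4 CPM in iOLs, against 3.34 and 2.16 CPM in OPCs (1.92 ± 0.46). Itga3, a laminin-receptor chain, had 31.4 and 34.0 CPM in cKO iOLs, against 20.6, 17.2 and 16.4 CPM in cKO OPCs (0.86 ± 0.30). In control cultures Itga3 had 15.2 and 37.8 CPM in iOLs, against 10.7 CPM in each OPC library (1.31 ± 0.35). The control iOL libraries disagreed for both genes: without control iOL 2 the control values were 0.95 for Itgb4 and 0.50 for Itga3, neither called by edgeR, and without control iOL 1 they were 2.49 and 1.82. The cKO call of Itga3 was also lost with a postnatal day term (edgeR adjusted p = 0.0653), and when any of 7 libraries was left out, while the cKO call of Itgb4 was lost when any of 4 was left out. The summed endothelial markers were higher in iOLs as well, as given above, but the measured markers did not move together. Kdr (4.25 ± 0.20 in cKO and 4.15 ± 0.25 in control cultures) and Vwf (3.06 ± 0.18 and 3.20 ± 0.20) rose. Flt1 fell in cKO cultures (-1.27 ± 0.29, edgeR adjusted p = 0.00746) and had 1.21 ± 0.50 in control cultures (edgeR adjusted p = 0.0755). The part of endothelial RNA in the integrin rises was not tested.

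Other integrin chains fell. Itga8 fell in both genotypes (-2.58 ± 0.21 in cKO and -4.13 ± 0.26 in control cultures). In control cultures Itga8 had 1.19 and 1.11 CPM in iOLs, against 16.6 and 23.9 CPM in OPCs. Itga9 fell as well (-2.33 ± 0.18 in cKO and -2.58 ± 0.20 in control cultures). Itga4, a fibronectin and Vcam1 receptor chain, fell in cKO cultures, at 3.14 and 3.91 CPM in iOLs against 7.59, 8.56 and 6.14 CPM in OPCs (-1.07 ± 0.23), while its control values were 5.11 and 4.72 CPM in iOLs and 4.33 and 5.26 CPM in OPCs (0.03 ± 0.24). Itgb1, the common partner of most of these chains, had log2 fold changes of 0.09 ± 0.13 in cKO and 0.37 ± 0.14 in control cultures (edgeR adjusted p = 0.601 and 0.0544). The laminin receptor chain Itga6 had 180 and 160 CPM in cKO iOLs, against 42.3, 45.5 and 108 CPM in cKO OPCs (1.38 ± 0.49, edgeR adjusted p = 0.0480), and the difference from the day 6 library alone was 0.66. In control cultures Itga6 had 106 and 107 CPM in iOLs, against 37.7 and 130 CPM in OPCs, and -0.28 from the day 6 library. Itga7 (1.09 ± 0.37) and Itga2 (1.50 ± 0.48) rose in cKO cultures, and both, like Itga6, differed between the OPC libraries of the 2 postnatal days. Against the day 6 library alone the cKO differences were 0.53 for Itga7 and 1.01 for Itga2. With a day term the cKO values were 0.44 for Itga7 and 0.52 for Itga6, both called, and 0.70 for Itga2 (edgeR adjusted p = 0.108).

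Of the axon-glia and immunoglobulin proteins, Nfasc, whose glial form anchors the paranode, had 1150 and 1370 CPM in cKO iOLs, against 410, 479 and 310 CPM in cKO OPCs (1.66 ± 0.20). In control cultures Nfasc had 1770 and 1600 CPM in iOLs, against 376 and 313 CPM in OPCs (2.29 ± 0.23). L1cam, an axonal relative, rose by 0.86 ± 0.23 and 0.85 ± 0.26 in cKO and control cultures. Ncam2 was called in opposite directions. In cKO cultures it had 88.0 and 88.0 CPM in iOLs, against 149, 155 and 96.0 CPM in OPCs (-0.60 ± 0.21). In control cultures it had 153 and 142 CPM in iOLs, against 75.6 and 102 CPM in OPCs (0.73 ± 0.22). The test of that difference gave -1.33 ± 0.30 (edgeR adjusted p = 0.0649), and -1.27 with a postnatal day term, which passed (edgeR adjusted p = 0.0276). The fall of Ncam2 in cKO cultures did not pass with the day term (edgeR adjusted p = 0.152) and was -0.13 against the day 6 library alone. Cntn3 rose in control cultures (1.71 ± 0.27) and had 0.06 ± 0.23 in cKO cultures, with a difference of -1.64 ± 0.36 (edgeR adjusted p = 0.0562), which passed with the day term (-1.58, edgeR adjusted p = 0.0157). Cntn4 fell (-2.77 ± 0.20 in cKO and -1.93 ± 0.21 in control cultures), and so did Cntnap2, the partner of Cntn2 (-1.07 ± 0.37 and -2.19 ± 0.42). The cKO value of Cntnap2 was -1.73 against the day 6 library alone, and its call was lost with a replicate block (-0.62, edgeR adjusted p = 0.0502) and without cKO OPC 3 or any one iOL library. Cadm4, the glial Cadm protein, fell (-0.49 ± 0.15 in cKO and -0.87 ± 0.17 in control cultures), in cKO cultures only without the day term, with which its edgeR adjusted p was 0.0757. Nectin4 fell too (-3.25 ± 0.35 and -2.83 ± 0.38), to at most 1.67 CPM in any iOL library against at least 7.84 CPM in any OPC library.

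Sidekicks moved apart. Sdk2 had 335 and 390 CPM in cKO iOLs, against 28.5, 27.5 and 36.5 CPM in cKO OPCs (3.56 ± 0.31). In control cultures it had 290 and 275 CPM in iOLs, against 10.1 and 25.7 CPM in OPCs (3.97 ± 0.37). Sdk1 fell instead (-1.01 ± 0.14 in cKO and -2.96 ± 0.17 in control cultures). Dscam, a neuronal self-recognition protein, had 140 and 134 CPM in cKO iOLs, against 587, 599 and 460 CPM in cKO OPCs (-2.0 ± 0.15). In control cultures Dscam had 206 and 193 CPM in iOLs, against 393 and 444 CPM in OPCs (-1.07 ± 0.16). The largest fall of the adhesion genes was that of Igsf1 in control cultures, at 3.92 and 3.05 CPM in iOLs against 47.9 and 126 CPM in OPCs (-4.64 ± 0.54). In cKO cultures Igsf1 had 4.47 and 5.02 CPM in iOLs, against 25.5, 24.4 and 50.9 CPM in OPCs (-2.82 ± 0.49), and the value with a day term was -3.53. Igsf11, an adhesion protein of excitatory synapses, rose by 2.90 ± 0.36 in cKO cultures, or 2.28 with a day term, and by 1.86 ± 0.40 in control cultures, and Igsf9b rose by 1.51 ± 0.17 in control cultures, with 0.20 ± 0.15 in cKO cultures.

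Most protocadherins outside the cluster fell, as counted above, while of 17 cadherins 7 fell and 3 rose in cKO cultures and 8 fell and 3 rose in control cultures. Among all genes 21.8% fell and 18.5% rose in cKO cultures, and 25.3% fell and 21.0% rose in control cultures. Pcdh15, a gene that marks OPCs, had 54.0 and 51.8 CPM in cKO iOLs, against 578, 594 and 342 CPM in cKO OPCs (-3.25 ± 0.25). In control cultures Pcdh15 had 56.3 and 57.3 CPM in iOLs, against 299 and 340 CPM in OPCs (-2.49 ± 0.25). The iOL values of Pcdh15 were nearly alike in both genotypes. In cKO and control cultures Pcdh11x (-3.18 ± 0.23 and -2.51 ± 0.23), Pcdh17 (-1.61 ± 0.19 and -0.87 ± 0.20) and Pcdh18 (-1.14 ± 0.29 and -2.01 ± 0.34) fell. Cdh4, R-cadherin (-1.84 ± 0.18 and -1.96 ± 0.20), and Cdh13, a cadherin held by a lipid anchor (-1.29 ± 0.16 and -1.18 ± 0.17), fell likewise. Cdh19 was the main exception, with 7.08 and 8.78 CPM in cKO iOLs against 0.705, 0.916 and 0.929 CPM in cKO OPCs (3.21 ± 0.34), and 1.98 ± 0.43 in control cultures. Cdh2 (N-cadherin) had 255 and 266 CPM in cKO iOLs, against 190, 195 and 201 CPM in cKO OPCs (0.41 ± 0.16, edgeR adjusted p = 0.0642), and rose in control cultures (0.71 ± 0.18). Among the leucine-rich repeat proteins, Slitrk1 (-1.27 ± 0.18 and -2.40 ± 0.21), Lrrtm4 (-2.07 ± 0.14 and -1.44 ± 0.14), Flrt3 (-2.24 ± 0.28 and -1.70 ± 0.29) and Lrrn1 (-1.44 ± 0.13 and -1.52 ± 0.14) fell in cKO and control cultures. The cKO value of Flrt3 was -1.58 against the day 6 library alone. Lrrtm2 rose in control cultures (0.99 ± 0.22).

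The 54 clustered protocadherins, which neurons use in different combinations for self-recognition, are given here by subcluster. The genes lie in 3 tandem arrays on chromosome 18, and the alpha and gamma genes each share constant exons while the beta genes are near-identical single-exon copies, so reads could be assigned to the wrong member and single values are uncertain. This split by array was made after the values had been seen. In cKO cultures 11 of 21 beta genes rose in iOLs, with a median of 0.68, and in control cultures 10 rose, with a median of 0.78. Among all genes 18.5% rose in cKO and 21.0% in control cultures. No beta gene fell by edgeR or by DESeq2 in either genotype, and none was lower at an unadjusted p under 0.05 either. Their summed level was 255 and 258 CPM in cKO iOLs, against 146, 176 and 144 CPM in cKO OPCs. In control cultures it was 290 and 259 CPM in iOLs, against 152 and 185 CPM in OPCs. Pcdhb16 had 12.6 and 12.2 CPM in cKO iOLs, against 5.42, 6.73 and 4.54 CPM in cKO OPCs (1.16 ± 0.20). In control cultures Pcdhb16 had 13.5 and 12.7 CPM in iOLs, against 4.39 and 5.63 CPM in OPCs (1.38 ± 0.23).

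Among all genes 21.8% fell in cKO and 25.3% in control cultures. Of 11 alpha genes, 3 fell in cKO and 2 in control cultures, with medians of -0.49 and -0.14. Pcdhac1 was among them in both, with 1.76 and 1.53 CPM in cKO iOLs against 5.59, 5.71 and 4.54 CPM in cKO OPCs (-1.68 ± 0.32), and -2.07 ± 0.36 in control cultures. Of 22 gamma genes, edgeR called Pcdhgc4 alone, while DESeq2 called 1 lower in cKO cultures, and 1 lower and 1 higher in control cultures. Pcdhgc4 fell, with 16.7 and 17.6 CPM in cKO iOLs against 60.1, 58.4 and 55.1 CPM in cKO OPCs (-1.76 ± 0.22), and -1.13 ± 0.23 in control cultures. Loss of Eed gave no call in the cluster at either stage, by edgeR or by DESeq2. At an unadjusted p under 0.05, 1 gene was higher in cKO iOLs, and 2 were higher and 2 lower in cKO OPCs. Summed gamma levels were 1130, 1110 and 1270 CPM in cKO OPCs, against 602 and 1390 CPM in control OPCs, so that control OPC 1 stood below all others.

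**Figure D4:**
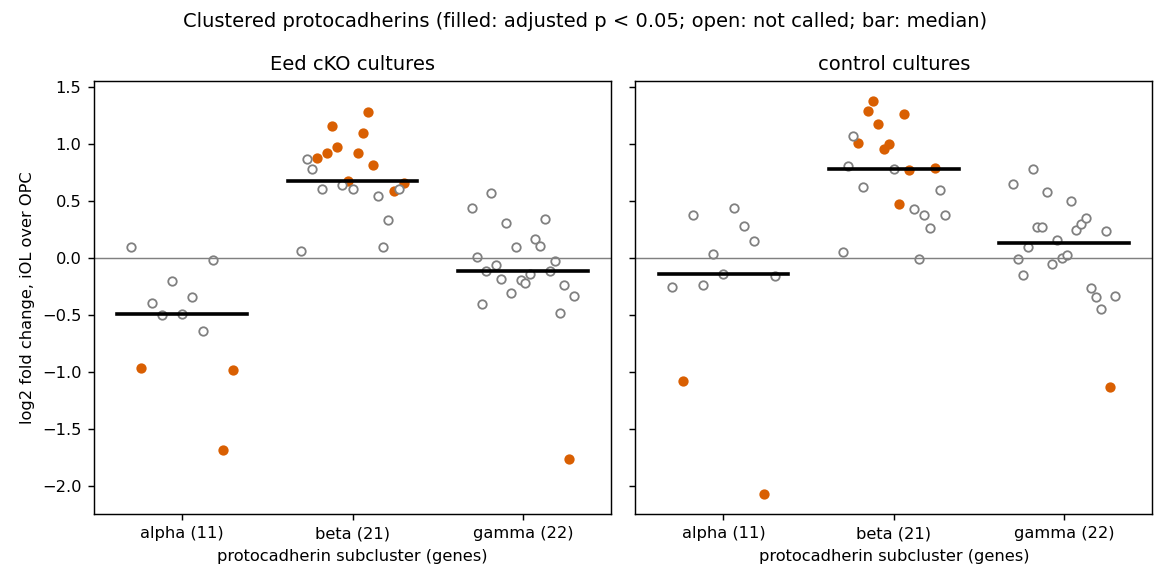
Log2 fold change of iOLs over OPCs (y axis) for the clustered protocadherins by array (x axis, with the number of genes), in cKO cultures on the left and control cultures on the right, filled where called and with a bar at the median. The beta genes have medians of 0.68 in cKO and 0.78 in control cultures, and the gamma genes -0.11 and 0.13.

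Several members with roles in oligodendrocytes were not called by edgeR in either cKO comparison, and some of them were with a postnatal day term. Itgb8, which with Itgav releases active TGF-beta, had 234 and 227 CPM in cKO iOLs, against 105 and 136 CPM in control iOLs (0.94 ± 0.27, edgeR adjusted p = 0.0570). Ncam1 had -0.34 ± 0.19 in iOLs and -0.02 ± 0.18 in OPCs, Itgb1 had -0.34 ± 0.14 and -0.07 ± 0.13, and Cadm3, the axonal Cadm protein, had 0.10 ± 0.12 and -0.03 ± 0.11. Cadm2 had 102 and 105 CPM in cKO iOLs, against 154 and 144 CPM in control iOLs (-0.53 ± 0.17, edgeR adjusted p = 0.0889). Igsf8, a tetraspanin partner, had 0.43 ± 0.14 in iOLs (edgeR adjusted p = 0.0914). With the day term the iOL effect passed for Itgb8 (edgeR adjusted p = 0.0253), Cadm2 (0.0434) and Igsf8 (0.0341), and DESeq2 called 1 integrin beta chain higher in cKO iOLs. All iOL libraries are from postnatal day 6, so that term changes the estimate of the spread and does not adjust the iOL effect. Cadm2 had -0.53 in iOLs with and without it. An adjusted p above the threshold does not show that levels were alike.

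By postnatal day, 19 adhesion genes were called in OPCs, in a comparison added after the values had been seen. In a fit with group and day, 14 adhesion genes were lower and 5 higher on day 7 than on day 6, against 7.74% and 5.85% of all genes. Itga6, a chain of the laminin receptor of oligodendrocytes, had 42.3 and 45.5 CPM in the day 7 cKO libraries and 37.7 CPM in the day 7 control, against 108 CPM in the day 6 cKO and 130 CPM in the day 6 control library (-1.50 ± 0.12, edgeR adjusted p = 0.000184). Itgb5, a beta partner of Itgav, had 33.5, 36.6 and 53.5 CPM on day 7, against 116 and 132 CPM on day 6 (-1.55 ± 0.15, edgeR adjusted p = 0.000395). Itga7, a muscle and glial laminin receptor chain, had 32.9, 34.1 and 45.0 CPM on day 7, against 63.8 and 109 CPM on day 6 (-1.08 ± 0.13, edgeR adjusted p = 0.000992). Nrcam, an L1 relative of nodes of Ranvier, had 204, 210 and 204 CPM on day 7, against 327 and 405 CPM on day 6 (-0.80 ± 0.11, edgeR adjusted p = 0.00193). The days did not overlap for these genes within either genotype, but the genes were picked because they were called by day. Control OPCs had a lone library for each day, so separation there was automatic, and cKO OPCs had a lone day 6 library.

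Igsf1 (-1.19 ± 0.13) and Igsf11 (-1.06 ± 0.12) were lower on day 7 as well, and Flrt3 was higher (0.70 ± 0.13), with 68.8, 61.9 and 43.0 CPM on day 7 against 35.4 and 31.4 CPM on day 6. Of the 19 genes called by day, 10 kept the call without each library. The number called lower was 63 without cKO OPC 3 and 9 without cKO OPC 2. The number called higher was 20 without either control OPC, 2 without cKO OPC 1 or 2, and 3 without cKO OPC 3 or either cKO iOL. The summed astrocyte markers had the same order, at 2660, 2860 and 2830 CPM on day 7 against 6910 and 8510 CPM on day 6, and all 6 of them were measured. The summed pericyte and fibroblast markers, of which 5 of 6 were measured, also had that order. Their sums were 36.0, 38.8 and 58.2 CPM on day 7 against 86.8 and 79.7 CPM on day 6. In control OPCs the members did not move together. Pdgfrb had 11.4 CPM on day 7 and 35.8 CPM on day 6, while Col1a1 had 6.62 and 3.9 CPM. Col1a2 (37.2 and 36.8 CPM), Rgs5 (2.34 and 2.47 CPM) and Dcn (0.703 and 0.737 CPM) were nearly alike on both days. Summed oligodendrocyte markers were higher on day 7 within each genotype. They had 1980 and 2740 CPM on day 7 against 1010 CPM on day 6 in cKO OPCs. In control OPCs they had 6440 CPM on day 7 against 2180 CPM on day 6. The part of these cells in the differences by day was not tested. With 3 libraries against 2, day and dissection or culture cannot be told apart.

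**Figure D5:**
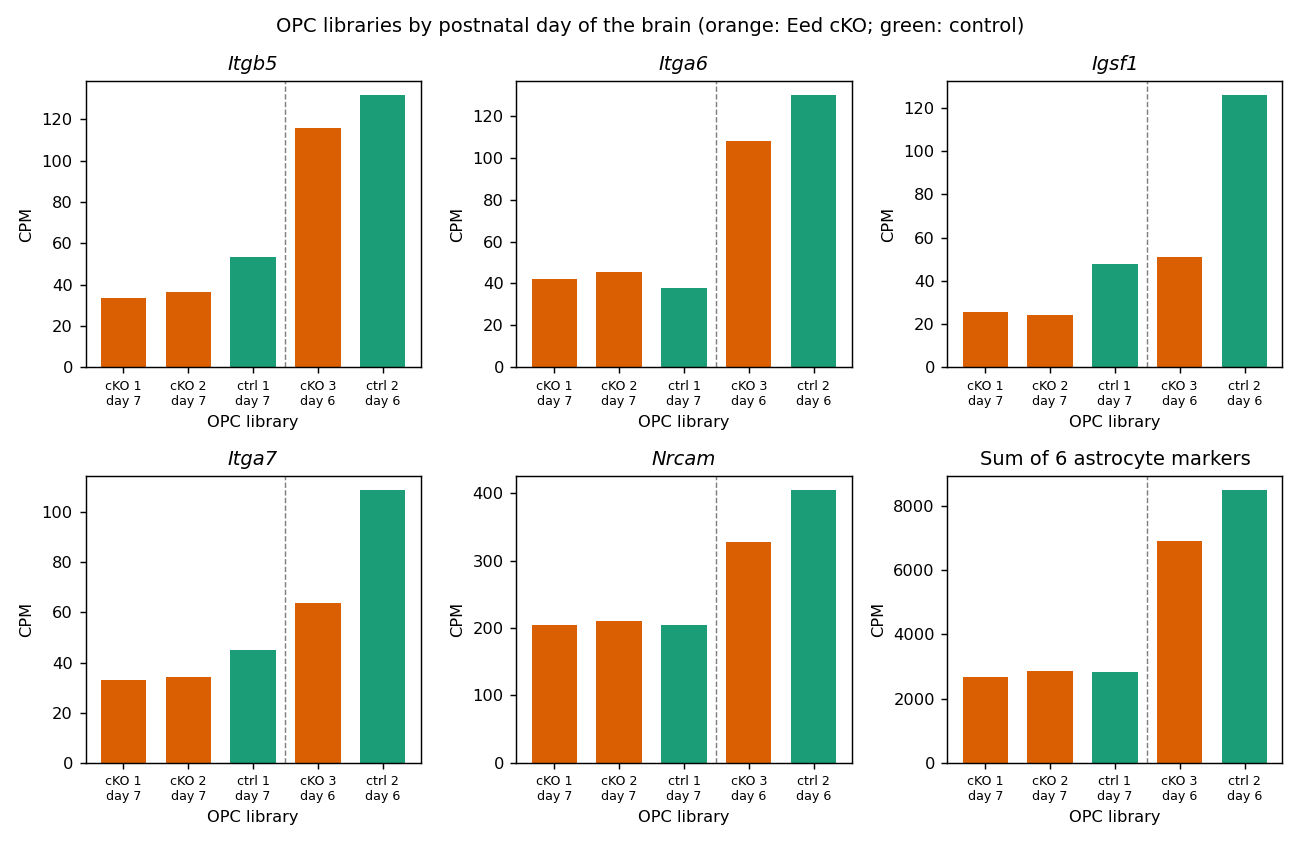
CPM (y axes, from 0) in the 5 OPC libraries, with the postnatal day 7 libraries left of the dashed line and day 6 right of it, cKO in orange and control in green, for 5 adhesion genes and the sum of 6 astrocyte markers. Itga6 lies at 37.7 to 45.5 CPM on day 7 and at 108 and 130 CPM on day 6.

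Partners of the adhesion genes were read from 5 written lists, whose genes lie outside the symbol rule except for Itgb1bp1, an integrin adaptor counted in both. Of 24 measured matrix ligands of integrins, 4 rose and 1 fell in cKO iOLs, where 7.08% of all genes rose and 3.51% fell. Fn1 (fibronectin) had 555 and 833 CPM in cKO iOLs, against 92.2 and 181 CPM in control iOLs (2.35 ± 0.45, edgeR adjusted p = 0.0115). Nid2 (1.72 ± 0.35), a basement membrane linker, Thbs2 (1.66 ± 0.32), a thrombospondin, and Lama4 (1.06 ± 0.17), a laminin chain, rose too, and the tenascin Tnr fell (-0.86 ± 0.23). In cKO OPCs Thbs2 alone of these lists' ligands passed, at 19.0, 20.9 and 24.4 CPM against 4.45 and 10.5 CPM in control OPCs (1.51 ± 0.31). Summed pericyte and fibroblast markers were 31.7 and 41.0 CPM in cKO iOLs and 24.5 and 79.6 CPM in control iOLs. The collagen genes Col1a1 and Col1a2, at 31.6 and 39.0 CPM, made up most of the sum in control iOL 2. Of the other markers, Rgs5 rose with the ligands, at 5.59 and 5.23 CPM in cKO iOLs against 1.36 and 0.944 CPM in control iOLs (2.22 ± 0.31, edgeR adjusted p = 0.00279). Dcn had 1.38 and 1.27 CPM in cKO iOLs, against 0.114 and 0.222 CPM in control iOLs (edgeR adjusted p = 0.0542), and the log2 fold change of Pdgfrb was 0.79 ± 0.72, which did not pass. The part of such cells in the rise of the ligands was not tested.

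Of 20 measured integrin adaptors, 2 rose and 4 fell in cKO iOLs, against 7.08% and 3.51% of all genes. Fyn, the kinase that links integrins and contactin to myelin formation, had 409 and 474 CPM in cKO iOLs, against 1150 and 1020 CPM in control iOLs (-1.29 ± 0.15, edgeR adjusted p = 0.00124). In OPCs Fyn had -0.08 ± 0.13, and the difference between stages was -1.22 ± 0.20 (edgeR adjusted p = 0.0255). The focal adhesion proteins Parvb (-1.43 ± 0.21), Lims2 (-1.39 ± 0.15) and Tns3 (-0.77 ± 0.17) also fell in cKO iOLs, while the tensin Tns2 rose (1.68 ± 0.16), at 40.3 and 48.2 CPM in cKO iOLs against 14.1 and 13.4 CPM in control iOLs, and so did the kinase Src (0.42 ± 0.11). Tns2 also rose in cKO OPCs (1.23 ± 0.15), and Lims2 also fell there (-0.65 ± 0.14).

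In the remaining lists the shares of all genes that rose and fell were again 7.08% and 3.51% in iOLs, and 2.94% and 0.303% in OPCs. Of 14 catenins and cadherin partners, the desmosomal plakophilin Pkp2 rose in cKO iOLs (1.71 ± 0.44), its relative Pkp4 fell (-0.49 ± 0.12), and the nectin-binding scaffold Afdn rose in cKO OPCs, with 149, 157 and 130 CPM in cKO against 62.7 and 92.7 CPM in control libraries (0.90 ± 0.17). Of 22 synaptic partners, the latrophilin Adgrl2 rose in iOLs (1.40 ± 0.23) and in OPCs (1.38 ± 0.21), Unc5d, a receptor of Flrt proteins, rose in OPCs (1.29 ± 0.29), and Cbln2 (-2.49 ± 0.39) and Il1rap (-0.69 ± 0.19) fell in iOLs. Of 28 further axon-glia and immunoglobulin proteins, 3 rose and 4 fell in cKO iOLs. Those that rose were Icam1 (2.50 ± 0.34), a ligand of leukocyte integrins, the L1 relative Chl1 (1.36 ± 0.15) and the adaptor Ank2 (0.74 ± 0.15). Epb41l2 (-1.46 ± 0.18), a membrane skeleton protein, Mpzl1 (-0.98 ± 0.14), Alcam (-0.84 ± 0.14) and Lsamp (-0.82 ± 0.15) fell. The effect differed between stages for Chl1 (1.08), Epb41l2 (-1.58) and Alcam (-1.03) of that list and for Il1rap (-1.43) of the synaptic partners, as log2 differences of iOLs minus OPCs called by edgeR. In OPCs the axon-glia list's 2 calls were Icam1 (1.93 ± 0.33) and Cntn1, the glial and axonal partner of Cntnap1, with 2960, 3160 and 2200 CPM in cKO against 1230 and 1430 CPM in control OPCs (1.06 ± 0.19).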

How the data were processed

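RNA of 9 libraries was analysed, and the chromatin immunoprecipitation samples were not analysed here. What the authors deposited is a table of unnormalised whole-number counts, one row per gene. Per the submitters' processing notes, which give no order or role, the tools named include cutadapt 1.14, STAR 2.6.0 and featureCounts of Subread 1.6.2, with the build mm10. Per the labels, a stranded polyA kit was used above 100 ng of RNA and an amplifying kit below it, without saying for which library. The strand setting of the counting is not given here. Each gene in the table has at least 1 count in every library and 10 in at least 4 libraries, so genes below that were not analysed here, and genes with near-identical copies are uncertain. A second header row (1) was dropped.

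The software was R 4.3.3, with the packages edgeR 4.0.16, DESeq2 1.42.0 and limma 3.58.1. A quasi-likelihood fit with TMM factors and 4 group means was made on all 13549 genes, and the filter at a minimum count of 10 removed 0. Its common dispersion was 0.0265 with 5 residual degrees of freedom. Adjusted p-values are Benjamini-Hochberg over all genes, and standard errors were derived as the absolute log2 fold change divided by the root of the F statistic. Within-day differences are of mean log2 CPM with a prior count of 2. Alternatives were RLE factors, other filters, the groups compared alone, a replicate block, a postnatal day term, DESeq2 and leaving out each library. The comparison of postnatal days was added after the data were seen.

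The members, lists and tests were chosen with earlier results of these data known. Members named are those called in a cKO comparison or its difference between stages, the 10 largest called and non-overlapping changes each way by differentiation with at least 5 CPM in the higher group, 30 members with oligodendrocyte roles, and up to 4 of each family by summed count, from which the text takes examples. Of the partner lists, members called in a cKO comparison are named. Positions and upstream sequences are from RefSeq, GRCm38.p6, in which all 153 symbols matched, and the CpG counts leave out the chromosome of the clustered protocadherins. Whether the labels' replicate numbers pair the libraries could not be decided.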

Additional observations from a re-analysis of the deposited data

Results flagged for a closer look

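Of the adhesion genes, 9 had an effect of Eed loss that differed between iOLs and OPCs, by edgeR's test of the difference itself (iOLs minus OPCs, on the log2 scale). It was positive for Sdk1 (1.95), Nectin1 (1.75), Itga8 (1.55), Cdh22 (0.95) and Lrrn2 (0.93). It was negative for Igsf9b (-1.31), Dscaml1 (-1.17), Slitrk3 (-0.91) and Cadm1 (-0.90). All these differences lost the call without at least 1 library. No group had 4 or more libraries, so single libraries were not tested as outliers.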

How the results depend on the processing

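RLE factors and a filter at 1 CPM in 4 libraries left each count of called adhesion genes within 1.5 times its value. Scaling moved the median of all genes by at most 0.02. The main filter removed 0 genes, so the run with no filter was the same fit and had to agree. That run adds 183 to the agreements counted in the next sentence. Over all alternatives, called values of named genes stayed past the threshold 2483 times, missed it 385 times and reversed 0 times; why calls were lost was not tested. In OPCs, 7 adhesion genes rose with Eed loss; the number was 1 with the compared groups alone, 18 with a replicate block, 15 with a postnatal day term, 12 with DESeq2 and 1 to 48 without single libraries. The 1 that fell became 0, 5, 4 and 2 under the same settings, and 0 to 4 without single libraries. In iOLs, the 19 that rose became 33 with the compared groups alone and 7 to 25 without single libraries. The 7 that fell became 24 with the compared groups alone, 13 with the block, 16 with the day term, 11 with DESeq2 and 0 to 14 without single libraries. All iOL libraries are from the same postnatal day, so in iOLs the day term acts through the estimate of the spread alone. The difference between stages, with 5 positive and 4 negative, gave 12 positive with the day term and 0 to 8 without single libraries. Negative ones numbered 15 with the block, 11 with the day term, 10 with DESeq2 and 0 to 32 without single libraries. With differentiation, the 32 that rose in cKO cultures became 13 to 42 and the 30 in control cultures 21 to 55 without single libraries. By postnatal day, 5 higher and 14 lower became 2 and 8 with the OPC groups alone, and 2 to 20 and 9 to 63 without single libraries. Deviations of same-numbered libraries correlated at 0.31 and -0.35 in OPCs and 0.24 in iOLs. In a group of 2 libraries the deviations mirror each other. The OPC libraries numbered 1 were both from day 7, while those numbered 2 were from different days. These values therefore cannot decide whether the replicate numbers pair the libraries. With 2 or 3 libraries a group, and a lone library assumed to vary like the other groups, precision is limited.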
